A study of Mus musculus with 1 sample.

Results

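The cells described here were selected from single-cell RNA sequencing of mouse pancreas by 6 genes of pericytes, the mural cells that lie along capillaries. A cell was taken when it held at least 4 UMIs (unique molecular identifiers, each counting 1 captured transcript) summed over Rgs5, Kcnj8, Abcc9, Higd1b, Notch3 and Cspg4. It had to hold at most 1 UMI of the contractile genes Myh11, Cnn1 and Actg2, and none of the endothelial genes Pecam1 and Cdh5, the leukocyte gene Ptprc or the mesothelial genes Msln and Upk3b. Under these limits 162 of 10947 retained cells were members, or 1.48% (exact binomial 95% interval 1.26 to 1.72%). The study asked how loss of SCAP, the escort protein that the SREBP lipid regulators need, alters the pancreas. The library used here is the control genotype, Scap f/f, in which the gene is floxed and no other allele is named. Pancreata of 5 to 6 mice of both sexes, aged 2 weeks, had been combined before sequencing, and the single library held 51540177 UMIs over 11789 barcodes. The knockout was not analysed here. The animals cannot be told apart in it, so differences have no replicate check and are given without a test. All intervals below are exact 95% intervals that cover counting error only, and the 6 selecting genes are described without being findings.

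Pericytes and vascular smooth muscle cells are the mural cells of blood vessels. Pericytes share the basement membrane of capillaries with the endothelium, which recruits them through platelet-derived growth factor B, while smooth muscle cells wrap arterioles and larger vessels and carry a dense contractile apparatus. In many organs pericytes are recognised by Rgs5, a regulator that shortens G protein signalling, by Notch3, the Notch receptor of mural cells, and by Kcnj8 and Abcc9, whose products Kir6.1 and SUR2 together form an ATP-sensitive potassium channel.

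The 3 promoters shown here belong to the gene that led the most members, Rgs5, and to the genes of the channel pair, Kcnj8 and Abcc9. Each sequence is the RefSeq window on build GRCm38.p6 from 250 bases before to 50 bases after the start that RefSeq gives, written 5′ to 3′ on the gene's strand. Capitals mark every match on either strand to TGGGAA, the core of the site of the Notch effector RBPJ, or to CATTCC, the core of the site of the TEAD factors. In Abcc9 the 2 matches overlap.
Rgs5 promoter, chr1:169655251-169655550, plus strand: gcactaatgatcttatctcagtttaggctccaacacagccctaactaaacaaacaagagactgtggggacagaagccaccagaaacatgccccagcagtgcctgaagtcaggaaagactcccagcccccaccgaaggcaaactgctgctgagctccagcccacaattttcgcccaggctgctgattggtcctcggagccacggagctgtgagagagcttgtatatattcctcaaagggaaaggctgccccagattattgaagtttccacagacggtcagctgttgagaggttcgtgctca
Kcnj8 promoter, chr6:142571565-142571864, minus strand: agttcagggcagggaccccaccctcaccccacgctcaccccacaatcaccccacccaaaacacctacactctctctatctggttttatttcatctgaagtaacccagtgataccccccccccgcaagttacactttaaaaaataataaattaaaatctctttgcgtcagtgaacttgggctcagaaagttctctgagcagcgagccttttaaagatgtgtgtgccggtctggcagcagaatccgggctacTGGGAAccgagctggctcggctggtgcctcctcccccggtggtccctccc
Abcc9 promoter, chr6:142702225-142702524, minus strand: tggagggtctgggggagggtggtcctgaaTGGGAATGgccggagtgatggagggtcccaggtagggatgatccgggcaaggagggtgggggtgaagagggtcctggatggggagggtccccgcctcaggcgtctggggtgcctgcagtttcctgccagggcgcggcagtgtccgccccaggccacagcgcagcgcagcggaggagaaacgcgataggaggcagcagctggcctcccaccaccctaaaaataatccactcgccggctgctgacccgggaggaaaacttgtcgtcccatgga
Of 32851 promoter windows of this length, 25.6% held TGGGAA and 14.7% held CATTCC. Neither was found in the Rgs5 window. TGGGAA began at the first base of the Kcnj8 transcript and, in Abcc9, at position -221 from the RefSeq start. Of the 6 selecting genes 5 had a window, and 2 of these held TGGGAA. A match describes letters only and shows no binding.

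The name pericyte did not hold for the members as a whole. Of the 162, 13 held at least 4 UMIs of the epithelial genes Epcam, Cdh1, Krt8 and Krt18. Of the rest, 98 held at least 4 UMIs of the fibroblast genes Pdgfra, Dpt and Lum, 46 held at most 1, and 5 lay in between. These sets were drawn after the data had been seen, and they are called epithelial, fibroblast-rich, fibroblast-poor and between. The fibroblast-poor members made up 28.4% of the members but 7.02% of their UMIs. They were shallow, with a median of 1486 UMIs against 6145.5 in the fibroblast-rich and 31104 in the epithelial members. The fibroblast-rich and epithelial members held 56.2 and 35.6% of the UMIs, so sums over all members are mostly sums over those 2 sets, and the sets are described apart.

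The interstitial collagens Col1a1, Col1a2 and Col3a1 were not used to draw the sets. They took 0 to 112 of every 10000 UMIs in the fibroblast-poor members, with a median of 43.5, and 156 to 1616 in the fibroblast-rich members, with a median of 486. The ranges did not overlap. The fibroblasts of the same library, selected by at least 4 UMIs of Pdgfra, Dpt and Lum and at most 1 UMI of the 6 selecting genes, had a median of 409, and smooth muscle cells, selected by at least 4 contractile UMIs, a median of 25.4. A cut at 150 collagen UMIs per 10000 gave 48 cells outside the epithelial set, among them all 46 fibroblast-poor members and 2 of the 5 in between. Thinning every member to 800 UMIs before applying the limit of 1 UMI of Pdgfra, Dpt and Lum instead gave 82 cells, of which 31 were fibroblast-rich.

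**Figure D1:**
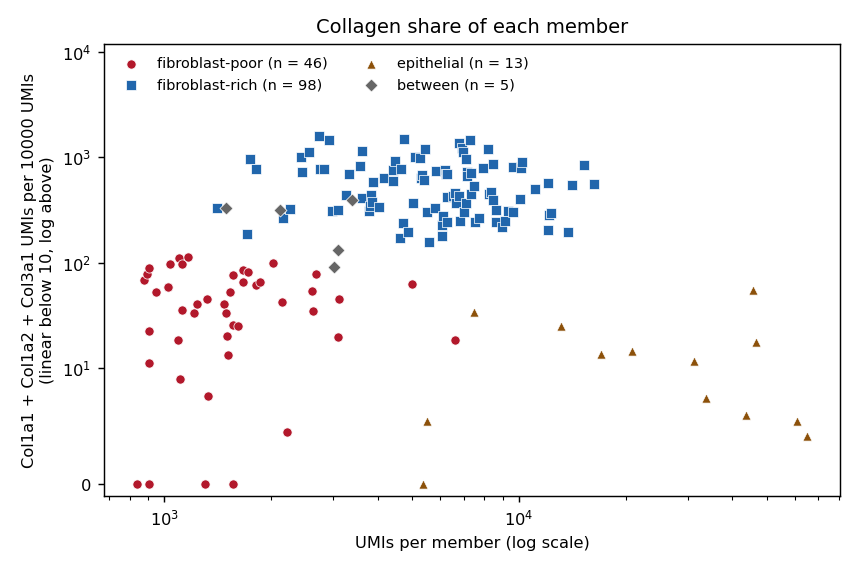
Each point is 1 of the 162 members, with its UMIs on the x axis and its Col1a1, Col1a2 and Col3a1 UMIs per 10000 UMIs on the y axis. The 46 fibroblast-poor members reach at most 112 per 10000, the 98 fibroblast-rich members start at 156, and the 13 epithelial members hold 5373 to 64963 UMIs.

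The sets entered the selection through different genes. In the fibroblast-poor members Rgs5 was detected in 46 of 46 cells, with 1, 6 and 23 UMIs as the lowest, median and highest count, and it was the largest of the 6 genes in 40. In the fibroblast-rich members Rgs5 was detected in 36 of 98, and the largest of the 6 genes was Abcc9 in 46, Notch3 in 26, Rgs5 in 21 and Kcnj8 in 5. In the epithelial members Rgs5 led in 13 of 13, and it was the only gene of the 6 in 7 of them. Higd1b, which encodes a small mitochondrial protein and marks pericytes in several organs, was seen in 19 of 46 fibroblast-poor, 4 of 98 fibroblast-rich and 0 of 13 epithelial members. At least 3 of the 6 genes were detected in 29 of 46 fibroblast-poor, 31 of 98 fibroblast-rich and 2 of 13 epithelial members. The 3 members that held all 6 genes were fibroblast-poor.

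**Figure D2:**
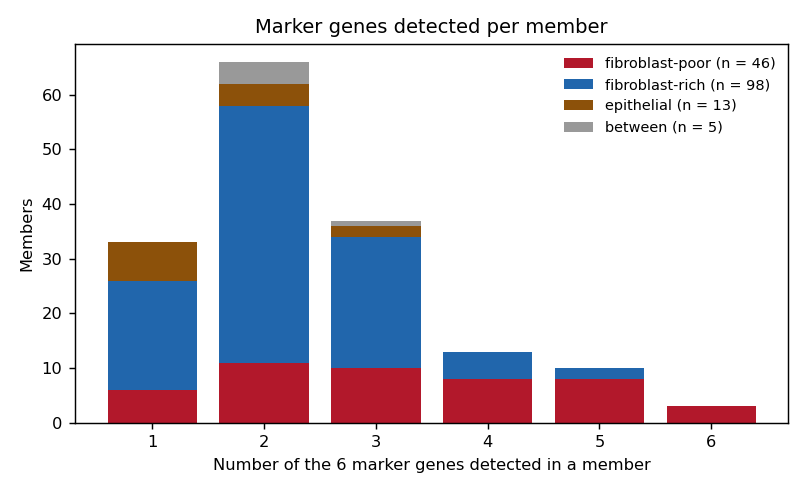
The plot counts members by how many of the 6 selecting genes they held, separated by set. Of 162 members, 33 held 1 gene and 66 held 2, while 3 held all 6, and those 3 were fibroblast-poor.

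The limit of 4 UMIs cut the sets differently. At exactly 4 UMIs there were 46 members, of which 38 were fibroblast-rich and 2 fibroblast-poor. Just outside, 114 cells that met every other limit held 3 UMIs, of which 103 were fibroblast-rich and 2 fibroblast-poor. At the contractile limit, a further 80 cells met every other condition but held at least 2 contractile UMIs, and 59 of them were fibroblast-poor, with a median of 7 and up to 129 contractile UMIs. Of these 59, 44 also counted among the 74 smooth muscle cells, and 57 of the 74 smooth muscle cells held at least 4 UMIs of the 6 selecting genes.

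The selecting genes are given here in the fibroblast-poor members and in the 59 cells over the contractile limit. Both groups had to hold at least 4 UMIs of the 6 genes, both had a median of 9, and the median depths were 1486 and 3000 UMIs, so the same floor stands for a higher level in the shallower group and no difference is read. Levels are CPM, the UMIs of a gene summed over a group per 1000000 UMIs of that group, and gene positions are those of the GENCODE annotation on build GRCm38, which for Abcc9 begins upstream of the RefSeq start used for its promoter. Kcnj8 (chr6:142564837-142571614, minus strand) stood at 449 (313 to 624) CPM, from 35 UMIs in 16 cells, against 1 UMI, or 4.05 (0.102 to 22.5) CPM, over the limit. Abcc9 (chr6:142587862-142702315, minus strand) stood at 1077 (859 to 1333) CPM against 64.7 (37 to 105). The levels of Kcnj8 and Abcc9 in the fibroblast-poor members depended on the selection and rose above these intervals when Rgs5 was left out of the sum, as given in the closing section. Rgs5 (chr1:169655501-169695813, plus strand) stood at 4334 (3884 to 4821) against 1420 (1276 to 1577) CPM, and Higd1b at 321 (207 to 473) against 105 (68.7 to 154) CPM. Notch3 (chr17:32120820-32166852, minus strand) stood at 872 (677 to 1105) against 1020 (898 to 1154) CPM, and Cspg4, the NG2 proteoglycan, at 154 (79.5 to 269) against 227 (171 to 294) CPM.

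The channel genes were not always detected together. Of the 46 fibroblast-poor members, 14 held both Kcnj8 and Abcc9, 12 held Abcc9 alone, 2 held Kcnj8 alone and 18 held neither. Among the 98 fibroblast-rich members the counts were 29, 45, 7 and 17. The genes of the related beta cell channel, Kcnj11 and Abcc8, had no UMI in any member, where 3 counts over all members correspond to 2.70 CPM.

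A list of 26 mural genes that the selection did not use was followed next. Calls were made at 2-fold on the scale of CPM plus 10 for genes with a mean of at least 50 CPM over the 2 groups compared. Of the 26, 19 passed that limit against fibroblasts, and those near 0 in fibroblasts could pass only through the fibroblast-poor members, so their count is not used as support and levels are given instead. The gene of the list that was called lower than in fibroblasts was Postn, a matrix protein made by fibroblasts, at 923 against 2342 CPM. Of all 3662 genes compared with fibroblasts, 17.0% were 2-fold higher and 13.1% lower, or 30.2% either way, and of 3784 genes compared with the fibroblast-rich members 15.6% and 14.4%, or 30.0% either way.

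Several mural genes were at similar levels in the fibroblast-poor members and smooth muscle cells. Mcam (CD146, an adhesion molecule of vessel walls) stood at 372 (249 to 534) CPM, against 8.01 (2.6 to 18.7) in fibroblast-rich members, 462 (396 to 536) in smooth muscle cells and 182 (148 to 220.5) in the 117 endothelial cells, selected by at least 3 UMIs of Pecam1 and Cdh5. Rgs4, another regulator of G protein signalling, stood at 372 (249 to 534) CPM, against 14.4 (6.6 to 27.4) in fibroblast-rich members and 302 (249 to 363) in smooth muscle cells. The ratios to smooth muscle cells were 0.805 (0.523 to 1.2) for Mcam and 1.23 (0.79 to 1.87) for Rgs4, both with intervals that include 1. The nitric oxide receptor subunit genes Gucy1a1, at 397 (270.1 to 564) against 427 (364 to 499) CPM, and Gucy1b1, at 282 (177 to 427) against 272 (222 to 331) CPM, overlapped too. Mcam was seen in 47.8% of fibroblast-poor members, 68.9% of smooth muscle cells and 1.37% of fibroblasts, whose median depths were 1486, 3568.5 and 2850 UMIs. After each cell was thinned to 800 UMIs, so that depth was equal, the shares were 28.3, 33.8 and 0.313%.

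Cox4i2, Vtn and Steap4 were more than 2-fold higher in the fibroblast-poor members than in smooth muscle cells. Smooth muscle cells had no floor on the selecting genes, so the selection favours genes carried with these in the members. The part of the selection in this and the later differences from smooth muscle cells was not tested. Cox4i2, an isoform of a cytochrome c oxidase subunit, stood at 346 (228 to 504) CPM against 98.8 (69.6 to 136), a ratio of 3.5 (2.05 to 5.91). Its level depended on the limits, falling to 217 (115 to 370.4) CPM when no contractile UMI was allowed and to 232 (120.04 to 406) CPM with at least 1500 UMIs a cell. Vtn, which encodes the adhesive glycoprotein vitronectin, stood at 295 (187 to 442) CPM against 56.1 (34.7 to 85.7), a ratio of 5.26 (2.78 to 9.99). Steap4, a metalloreductase gene, was 11.2 (4.04 to 35.6) times as high, from 14 UMIs. Ndufa4l2, a relative of the mitochondrial subunit gene Ndufa4, stood at 462 (323 to 639) CPM against 262 (212 to 319), a ratio of 1.76 (1.17 to 2.61) that was under 2-fold, and at 329 (192 to 527) CPM with at least 1500 UMIs a cell, an interval that includes the smooth muscle level. The common paralogs of these mitochondrial genes are given beside them. Cox4i1 stood at 731 (554 to 947) CPM against 692 (609.9 to 781), Higd1a at 64.1 (20.8 to 149.6) against 120.2 (87.6 to 161), and Ndufa4 at 76.9 (28.2 to 167) against 459 (393 to 533). Of all 3721 genes compared with smooth muscle cells, 10.5% were 2-fold higher and 11.4% lower. Of 21 genes of the mural list compared with smooth muscle cells, 6 were 2-fold higher and 2 lower. Heyl, given with the Notch genes below, was among the lower ones. A gene that is low in 1 of the groups, such as Steap4, passes the limit of 50 CPM only through the other. Counts over this and other lists against smooth muscle cells therefore describe the genes compared and are not used as support. Atp13a5, P2ry14, Ggt1 and Slc6a20a had no UMI in the fibroblast-poor members, where 3 counts correspond to 38.5 CPM.

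**Figure D3:**
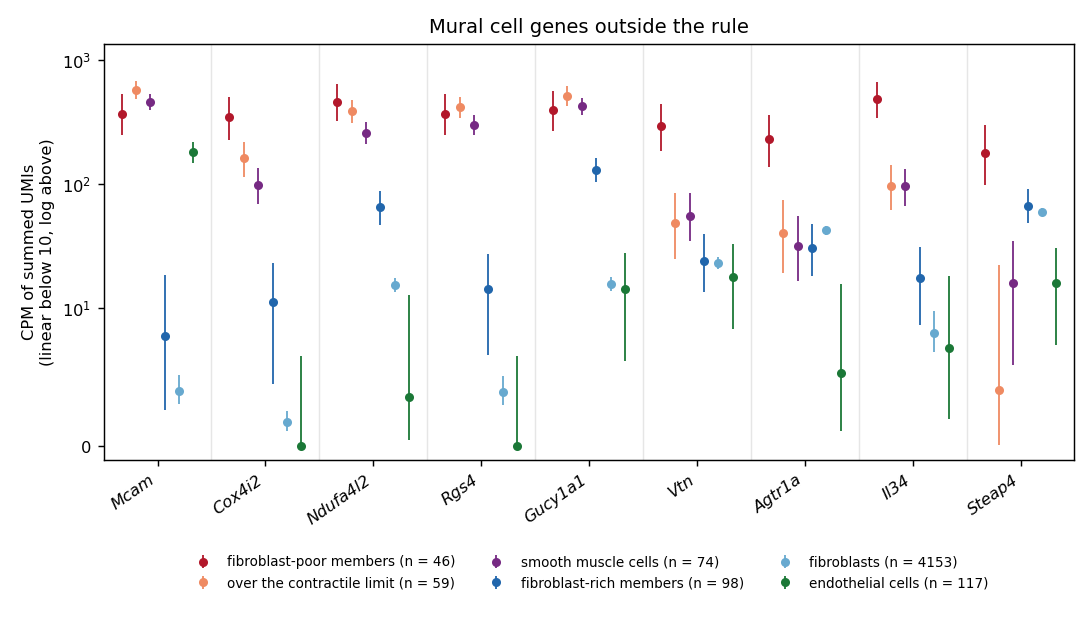
Points are CPM of summed UMIs with exact Poisson 95% intervals for mural genes outside the selection, by group of cells. The intervals of Mcam, Rgs4 and Gucy1a1 overlap between the 46 fibroblast-poor members and the 74 smooth muscle cells, while the points of Vtn, Agtr1a and Il34 stand highest in the fibroblast-poor members.

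Genes outside the selection were also ordered by their ratio to the highest of the smooth muscle, fibroblast, endothelial and immune classes, and several of the 15 leading genes of the fibroblast-poor members are described here. None of these classes had a floor on the selecting genes, so the selection favours genes carried with these here too. Agtr1a, a receptor of angiotensin II, stood at 231 (137 to 365) CPM against 32 (16.6 to 56) in smooth muscle cells and 42.6 (39.3 to 46) in fibroblasts. Il34, a ligand of the macrophage receptor CSF1R, stood at 487 (345 to 669) CPM against 96.1 (67.3 to 133) in smooth muscle cells and 8.22 (6.83 to 9.81) in fibroblasts, and Ifitm1, an interferon-induced membrane protein, at 833 (643 to 1062) CPM against 160.2 (122 to 206) and 174 (168 to 181). These genes were spread over cells. Il34 was found in 19, Ifitm1 in 29 and Agtr1a in 13 of the 46, and the cell with the most Il34 held 18.4% of its UMIs. After thinning to 800 UMIs, Il34 was seen in 21.7% of fibroblast-poor members, 4.05% of smooth muscle cells and 0.578% of fibroblasts. Lin7a, a scaffold protein gene, at 244 (147 to 380.4) against 29.4 (14.7 to 52.6) CPM in smooth muscle cells, and the transcription factor gene Etv1, at 231 (137 to 365) against 42.7 (24.4 to 69.4), were also among the 15 leading genes. By contrast the chemokine gene Ccl2 (16 UMIs, 9 of them in 1 cell) and Unc13c (9 UMIs in 4 cells) led on very few cells.

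Levels of contractile genes are given as a description. The fibroblast-poor members could hold at most 1 UMI of Myh11, Cnn1 and Actg2 and smooth muscle cells had to hold at least 4, so the selection also fixed the direction of genes that are carried with these, and no count over the contractile list is used. Acta2, smooth muscle actin, stood at 1410 (1159 to 1700) CPM against 8700 (8404 to 9004), and Tagln, the actin-binding protein transgelin, at 1103 (882 to 1362) CPM against 5426 (5193 to 5667). Acta2 was 11.1 (8.27 to 15.1) times the level of the fibroblast-rich members, with its 110 UMIs in 24 of the 46 cells and 47.3% of them in 5 cells. After thinning to 800 UMIs Acta2 was seen in 50% of fibroblast-poor members, 97.3% of smooth muscle cells and 3.08% of fibroblasts. The limit of 1 contractile UMI did not scale with depth, so a shallow smooth muscle cell could meet it. The part of such cells in these levels was not tested. In single fibroblast-poor members the Acta2 and Tagln UMIs together ran from 0 through a median of 2 to 23, and 29 of the 46 cells held at least 1. Cald1, the actin regulator caldesmon, was less far apart, at 1910 (1616 to 2243) CPM against 2433 (2277 to 2596). Pln, the calcium pump inhibitor phospholamban, had no UMI in the 46 cells against 61 in smooth muscle cells, and Kcnma1, the large-conductance potassium channel, none against 94. Against a floor of 3 counts over the 46 cells they were 4.24- and 6.53-fold lower, and the exact 95% limits, which also carry the counting error of smooth muscle cells, were at least 3.34- and 5.2-fold. Myocd, the cofactor that drives smooth muscle genes, was lower by a factor of 5.62 (2.35 to 17.6), and Crispld2, a secreted protein, stood at 12.8 against 694 CPM.

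**Figure D4:**
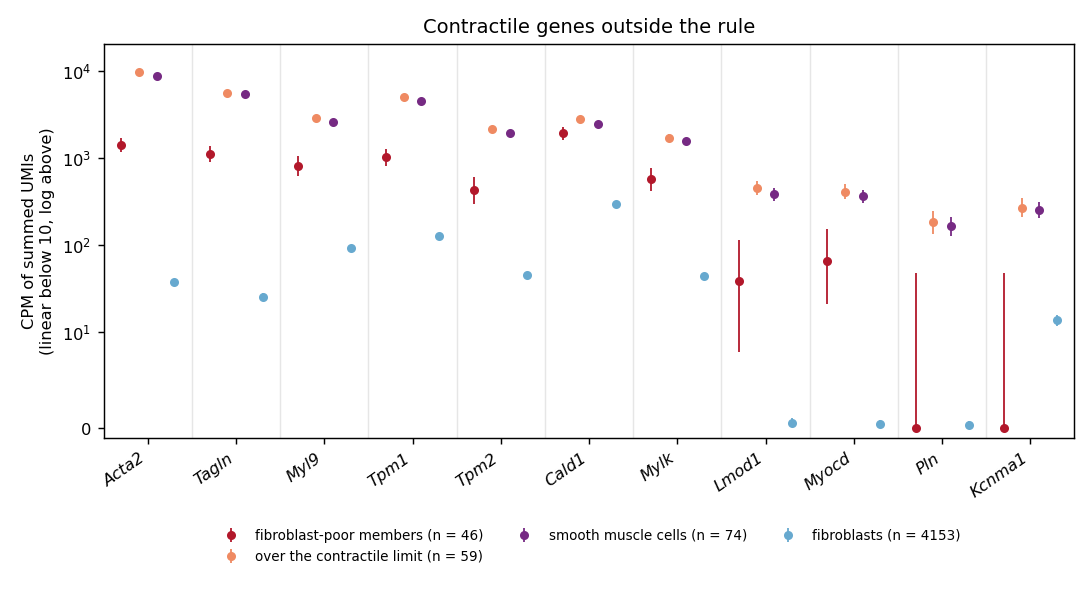
Points are CPM of summed UMIs with exact Poisson 95% intervals for contractile and smooth muscle genes, by group of cells. The 46 fibroblast-poor members lie between the 74 smooth muscle cells and the 4153 fibroblasts for Acta2 (1410, 8700 and 36.8 CPM), and have no UMI of Pln or Kcnma1.

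Genes that set vessel tone were shared in part with smooth muscle cells. Cacna1c, the pore of the L-type calcium channel, stood at 1167 (939 to 1432) CPM against 1001 (903 to 1108), and Prkg1, the cGMP-dependent kinase, at 2385 (2054 to 2753) CPM against 2590 (2430 to 2758). Both pairs of intervals overlapped. The endothelin receptor genes Ednrb, at 436 (302 to 609) against 168 (129 to 215) CPM, and Ednra, at 346 (228 to 504) against 238 (191 to 292) CPM, had ratios of 2.59 (1.66 to 3.99) and 1.46 (0.91 to 2.26). Some receptors and channels were lower. The adrenergic receptor gene Adra1a had 1 UMI, or 12.8 CPM, against 189.6 in smooth muscle cells, the calcium release channel gene Ryr2 12.8 against 238, and the purine receptor gene P2rx1 no UMI against 101. Of 16 vasoactive genes compared, 2 were 2-fold higher than in smooth muscle cells and 4 lower, and of 15 channel genes outside the selection 2 were higher and 3 lower. Of all genes 10.5% were higher and 11.4% lower. Adra1a, Ryr2 and P2rx1 passed the limit of 50 CPM only through smooth muscle cells, which were selected by contractile UMIs. No result is read from these counts.

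Notch genes were carried by both the fibroblast-poor members and smooth muscle cells. The ligand gene Jag1 stood at 359 (239 to 519) CPM against 382 (322 to 449.8), the target Hes1 at 577 (421 to 772) against 838 (748 to 937), and the feedback gene Nrarp at 141 (70.4 to 252) against 174 (134 to 221). The target Heyl was lower, at 89.8 (36.1 to 185) CPM against 269.7 (219.7 to 328). Of 8 Notch genes compared outside the selection, 0 were 2-fold higher than in smooth muscle cells and 1 lower, beside 10.5% and 11.4% of all genes. Their median log2 ratio was -0.41, against 0.04 for all genes. Of the platelet-derived growth factors, the ligand gene Pdgfa stood at 308 (197 to 458) CPM against 251 (203 to 307) in smooth muscle cells and 12.4 (10.7 to 14.4) in fibroblasts. Pdgfb, the ligand that endothelium makes, stood at 76.9 (28.2 to 167) CPM, against 215 (179 to 257) in endothelial cells.

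Basement membrane genes were called in both directions against smooth muscle cells. Col4a1 and Col4a2, the chains of the main basement membrane collagen, stood at 2757 (2400 to 3151) and 1513 (1252 to 1812) CPM, which was 2.56 (2.16 to 3.03) and 2.85 (2.25 to 3.59) times the smooth muscle level. In endothelial cells they stood at 2827 and 1430 CPM. Itga1, a collagen-binding integrin gene, stood at 1333 (1090 to 1616) CPM against 721 (638 to 812) in smooth muscle cells, and Mfge8, which encodes a secreted bridging protein, at 1026 (813 to 1277) CPM against 446 (381 to 519). The laminin gene Lama2 stood at 167 (88.8 to 285) CPM, against 601 (588 to 613) in fibroblasts. Of 22 basement membrane genes compared with smooth muscle cells, 6 were 2-fold higher and 6 lower, beside 10.5% and 11.4% of all genes. Among the lower ones were the laminin gene Lamb2, at 38.5 against 192 CPM, the perlecan gene Hspg2, at 128 against 312, and Sparcl1, a matrix-associated protein gene, at 385 against 1479. No count of matrix genes against fibroblasts is used, because opposite limits on Pdgfra, Dpt and Lum drew the 2 groups. Eln, elastin, stood at 1244 (1008 to 1517) CPM against 9445 (9136 to 9761) in smooth muscle cells and 729 (716 to 743) in fibroblasts, with 21.6% of its UMIs in 1 cell.

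Among transcription factors, Ebf1, found in mural and other mesenchymal cells, stood at 4257 (3811 to 4740) CPM in the fibroblast-poor members. That was 2.2 (1.93 to 2.51) times the level of smooth muscle cells, and fibroblasts stood at 2120 and endothelial cells at 1743 CPM. Epas1, the hypoxia factor HIF2A gene, stood at 436 (302 to 609) CPM, against 414 (351 to 484) in smooth muscle cells and 11.4 (9.78 to 13.3) in fibroblasts. Mef2c was lower than in smooth muscle cells, at 859 (666 to 1091) CPM against 1487 (1366 to 1616). Tbx18 and Foxd1, used elsewhere to trace pericytes, had no UMI. Of 17 transcription factor genes compared with smooth muscle cells, 2 were 2-fold higher and 2 lower, shares near the 10.5% and 11.4% of all genes.

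Immediate early genes, which tissue digestion can induce, were lower in the fibroblast-poor members than in smooth muscle cells for 7 of 16 genes and higher for 0, beside 11.4% and 10.5% of all genes. Fos stood at 2731 (2376 to 3123) CPM against 6379 (6126 to 6640), and Atf3 at 103 (44.3 to 202) against 692 (609.9 to 781). The median share of mitochondrial UMIs was 3.21% in the fibroblast-poor members and 3.07% in smooth muscle cells.

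Vitamin A-storing stellate cells are another mesenchymal cell of the pancreas, and their genes were looked for. Of 7 genes of this list compared with smooth muscle cells, 4 were 2-fold higher in the fibroblast-poor members and 1 lower, beside 10.5% and 11.4% of all genes. Lrat, Gfap and Stra6 had no UMI in any of the 162 members. Nes, nestin, stood at 192 (108 to 317) CPM in the fibroblast-poor members against 82.8 (56.2 to 118) in smooth muscle cells, and Fap, a fibroblast surface protease, at 256 (157 to 396) against 72.1 (47.5 to 105) CPM. Rarb, a retinoic acid receptor, had 7 UMIs, or 89.8 (36.1 to 185) CPM, against 24 (11 to 45.6) CPM. Vim, vimentin, was lower, at 628 (465 to 831) against 1506 (1384 to 1636) CPM. Des, desmin, stood at 179.5 (98.1 to 301) CPM in the fibroblast-poor members against 360.5 (302 to 427) in smooth muscle cells. Cygb, cytoglobin, stood at 490.4 (437 to 549) CPM in the fibroblast-rich members, and at 192 (108 to 317) CPM in the fibroblast-poor ones. Of the SREBP pathway, Scap had 1 UMI in the fibroblast-poor members, Srebf1 3 and Srebf2 2. The fatty acid-binding protein gene Fabp4 had its 42 UMIs in 5 cells and 20 of them in 1 cell. The imprinted growth genes H19, at 205 (117 to 333) against 4579 (4544 to 4613) CPM, and Igf2, at 295 (187 to 442) against 1953 (1931 to 1976) CPM in fibroblasts, are given without a count over their list for the same reason as the matrix genes.

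Transcripts of other cell types moved with the fibroblast-poor set. Digestive enzyme genes of acinar cells took 4.94% of its UMIs, against 0.812% in smooth muscle cells, 2.57% in fibroblasts, 1.64% in endothelial cells and 3.82% in immune cells. The most abundant was Ctrb1 at 14976 CPM. Globin genes took 1.78%, against 0.0473, 0.419, 0.0559 and 1.13%, and the most abundant was Hbb-bs at 11078 CPM. A group of 5 cells held 88.2% of the set's enzyme and globin UMIs. Without them Rgs5 stood at 4860 CPM and Ebf1 at 4844 CPM, above the intervals given, and the other levels followed stayed within theirs (an alternative chosen after seeing the data). The endothelial list summed to 590 CPM from 46 UMIs, against 6566 in endothelial cells and 214 in smooth muscle cells. Esam, also carried by smooth muscle cells (158 CPM), was its most abundant gene at 205 CPM, and Pecam1 and Cdh5 were at 0 by selection. The leukocyte list had 2 UMIs in all, with Ptprc at 0 by selection, and the epithelial list 4. The part of these transcripts in the other results was not tested.

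Across all genes, the leading genes of the fibroblast-poor members against smooth muscle cells mixed these transcripts with others. The globin genes Hbb-bs, Hba-a1, Hbb-bt and Hba-a2 came first, and the enzyme gene Cela3b and Fabp4 also stood among the first 15. Others among them were Ccl2, Rbp7, Unc13c, Nhsl1, Steap4, Ets1, Ptprk and Lgi1. Ets1, a transcription factor gene, stood at 346 (228 to 504) CPM over 19 cells, against 42.7 (24.4 to 69.4) in smooth muscle cells. The 10 lowest were Crispld2, Kcnma1, Tnfaip6, Map3k7cl, Rasd1, Pcdh7, Palld, Ldb3, Ntn4 and Abi3bp. Against endothelial cells 13.2% of 4035 genes were 2-fold higher and 17.2% lower, 30.4% either way, and Rgs4 and Cox4i2, with no UMI in the 117 endothelial cells, stood 69.6 and 64.8 times above a floor of 3 counts over those cells. The exact 95% limits of the ratios, which also carry the counting error of the members, were at least 53.1 and 49.2.

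**Figure D5:**
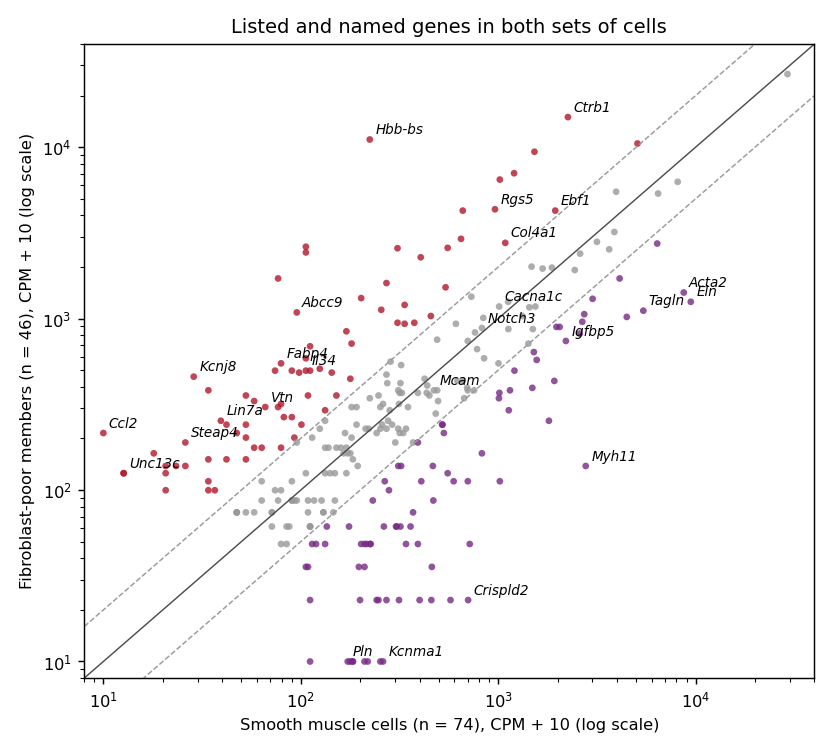
Each of the 293 points is a listed or named gene with a mean of at least 50 CPM, a chosen part of the 3721 genes compared, plotted by its level in smooth muscle cells (n = 74) and in fibroblast-poor members (n = 46) on log axes, with lines for equal levels and 2-fold limits. Above the upper limit lie 78 genes, among them Vtn and Il34, and below the lower limit lie 84, among them Acta2, Tagln and Eln. The chosen genes include the selecting and contractile genes and the leading genes of this comparison, so no share is read from these counts. Of all genes 10.5% were higher and 11.4% lower.

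Few genes were past 2-fold between the fibroblast-rich members and fibroblasts, with 2.96% of 3511 genes higher and 2.48% lower, or 5.44% either way. This set held 623957 UMIs and the fibroblast-poor set 77994, and counting error moves more genes past 2-fold in the smaller sum. The shares of the 2 sets against fibroblasts are therefore not compared. Col1a1 stood at 17245 CPM against 10816, and the genes that drew the set at 348 against 416 for Pdgfra, 1164 against 970.2 for Dpt and 1752 against 1900 for Lum. The selecting genes are given as a description, with Abcc9 at 386 (339 to 438) CPM, Notch3 at 253 (215 to 296), Rgs5 at 212 (177 to 251) and Kcnj8 at 91.4 (69.2 to 118). As fibroblasts were limited to 1 UMI of these genes and both sets of members needed at least 4 at different depths, no difference is read. The fibroblast-rich members were also deeper than fibroblasts, with medians of 6145.5 and 2850 UMIs.

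Some genes stood apart from the fibroblasts, which were taken as 1 pooled class. Kinds of fibroblast within that class were not compared, and their part in the differences was not tested. Eln was 9.35 (9.02 to 9.69) times as high, at 6819 (6616 to 7027) against 729 (716 to 743) CPM, and in single fibroblast-rich members it ran from 0 through a median of 8.5 to 564 UMIs, with 44.7% of its UMIs in 5 of the 98 cells. Mgp, the calcification inhibitor matrix Gla protein, was 4.17 (3.96 to 4.39) times as high, the oxygenase gene Fmo2 7.12 (6.17 to 8.19) times, and the elastic fibre gene Mfap4 3.03 (2.81 to 3.27) times. Meox2, a transcription factor gene, stood at 167 against 40.1 CPM. Of mural genes, Gucy1a1 was 8.33 (6.4 to 10.8) times as high, at 131 (105 to 163) CPM with 47.6% of its UMIs in 5 cells, and Acta2 stood at 127 (100.2 to 158) CPM against 36.8 (33.8 to 40.0). Efemp1, at 48.1 (32.4 to 68.6) against 366 (357 to 376) CPM, Ly6a, at 117 (91.7 to 147) against 586 (574 to 599) CPM, and H19, at 1374 (1283 to 1469) against 4579 (4544 to 4613) CPM, were lower. All 11 digestive enzyme genes compared were lower too, and enzymes took 0.564% of the UMIs of this set against 2.57% in fibroblasts.

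The 13 epithelial members carried duct genes. Spp1, osteopontin, stood at 5084 (4865 to 5311) CPM, Sox9, the duct transcription factor, at 1189 (1084 to 1301) and the keratin gene Krt8, which helped to draw the set, at 1068 (968 to 1175). Spp1 and Sox9 together ran from 19 through a median of 97 to 536 UMIs per cell. Rgs5 stood at 207 (165 to 257) CPM and in 235 other epithelial cells at 17.5 (13.1 to 22.9), a gap that the selection fixed. Kcnj8 had 1 UMI and Abcc9 2 UMIs in the 13 cells, and Notch3 was detected in 4 of them. Against the other epithelial cells 32.6% of 2995 genes were 2-fold higher and 3.27% lower. The median log2 ratio over all these genes was 0.72, enzymes took 9.54% of the UMIs of the 13 cells and 32.4% of those of the other epithelial cells, and the median depths were 31104 and 10066 UMIs. The part of the enzymes in the count was not tested. Of the 13, 9 held UMIs of both the female transcript Xist and a Y-linked gene, as did 60 of the 235, 9 of the 98 fibroblast-rich and 1 of the 46 fibroblast-poor members. Scrublet, which scores likely doublets, marked 0 of the 13, 3 of the 98 and 1 of the 46. The part of depth and of mixed droplets in the Rgs5 UMIs was not tested.

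Taken as 1 group, the 162 members gave comparisons dominated by the deeper sets. Against smooth muscle cells 9.48% of 3859 genes were 2-fold higher and 11.9% lower, against fibroblasts 5.05 and 3.70% of 3623 genes (8.75% either way), and against endothelial cells 10.6 and 13.8% of 4067 genes (24.5% either way). The duct gene Spp1 led all 3 comparisons. Variation among the members was measured as the variance of UMIs over that expected from each cell's depth. The index was 1182 for Hbb-bs, 420.3 for Ctrb1, 154 for Eln and 24.4 for Rgs5, beside a median of 1.21 over 5831 genes. Within the fibroblast-poor members Hbb-bs again varied widely, at 489, beside a median of 1.20 over 1481 genes. The index of the selecting genes there was 2.84 for Rgs5, 2.48 for Abcc9, 1.67 for Notch3, 1.5 for Kcnj8 and 1.03 for Higd1b. Every member had to hold at least 4 UMIs over the selecting genes, which shapes their index, so these values are a description only. Cells with at least 2 UMIs of cell cycle genes numbered 5 of 46 fibroblast-poor, 6 of 98 fibroblast-rich and 7 of 13 epithelial members. They numbered 6 of 74 smooth muscle cells and 64 of 235 other epithelial cells. Median depths of these sets, in the same order, were 1486, 6145.5, 31104, 3568.5 and 10066 UMIs, so no difference between the sets is read.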

How the data were processed

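The UMI counts per gene and barcode were deposited by the authors as Cell Ranger 7.1.0 wrote them (build mm10, per the labels), as whole numbers that were not normalized. A barcode was retained above 800 and below 100000 UMIs when mitochondrial genes took less than 15% (10947 of 11789, median 2650 UMIs). Members and classes were set by marker UMIs. Doublets were scored with Scrublet in scanpy 1.11.5 and kept. UMIs were summed per set and expressed per 1000000 (CPM), with exact Poisson intervals for levels and exact conditional ones for ratios. Ratios were called at 2-fold on CPM plus 10, for genes with a mean of at least 50 CPM. Named genes came from 28 lists and from the genes leading each comparison, and those set against the 59 cells over the contractile limit were chosen after their values were seen. Members and lists were chosen with earlier results of these data known. The scripts (Python 3.11.15, numpy 2.4.6, scipy 1.17.1, pandas 2.3.3) were tested on simulated data. Some genes are not reported here. Levels of near-identical copies, such as the globin genes, are uncertain.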

Additional observations from a re-analysis of the deposited data

How the results depend on the processing

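No paired analysis was possible because there is 1 library. The number of members, 162, was 136 with a lower limit of 1500 UMIs, 86 with a marker minimum of 6, 276 with a minimum of 3 and 102 with Rgs5 left out of the sum, and the fibroblast-poor members, 46, were 22 with the limit of 1500 UMIs and 21 without Rgs5. Genes past 2-fold between all members and fibroblasts, 317, numbered 522 with a marker minimum of 6, 202 with 3, 208 without Rgs5 and 191 for the fibroblast-rich members alone, a set chosen after seeing the data. With a filter at a mean of 100 CPM in place of 50, fewer genes were tested, and the totals for all members fell from 825 to 483 against smooth muscle cells, from 317 to 165 against fibroblasts and from 996 to 563 against endothelial cells, and for the fibroblast-poor members from 818 to 419, from 1105 to 583 and from 1226 to 658. With a filter at 20 CPM these were 1302, 580 and 1680 for all members and 1756, 2045 and 2278 for the fibroblast-poor members. Apart from the filter, the cause was not tested. The other alternatives run (the upper limit, the mitochondrial limit, the contractile limit, doublets, endothelial UMIs, the denominator, the mean over cells and the pseudocount) left these counts within 1.5 times. Levels of named genes moved beyond their counting interval in 109 of the values over all members and 243 stayed, and in the fibroblast-poor members 10 moved and 374 stayed. In those members Cox4i2 moved from 346 to 217 CPM with no contractile UMI allowed, and with Rgs5 left out of the sum Kcnj8 moved from 449 to 780 CPM, Abcc9 from 1077 to 1697 and Nrip2 from 64.1 to 0. The others that moved, by less than 1.5 times, were levels of Rgs5, Notch3 and Ebf1. Ratios of single genes to other classes were not recomputed under the alternatives, so their directions were not checked. The subtraction of free RNA was to be scaled by the enzyme share and gave no value, because enzymes took 2.636% of the UMIs in 748 barcodes under 800 UMIs, 4.073% in the members and 4.941% in the fibroblast-poor set. Globins and enzymes together took 11.79% in those barcodes, 4.418% in the members and 6.726% in the fibroblast-poor set, so the order turned with the globins, and no subtraction scaled by them was run. In the fibroblast-poor members 1 UMI corresponds to 12.8 CPM, so differences at a few UMIs were not detectable.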
